A study of Mus musculus with 70 samples.

Results

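The lateral hypothalamic area (LHA) was compared with 4 medial nuclei of the mouse hypothalamus by bulk RNA-Seq. Its 3 libraries were picked by the region abbreviation in the sample labels, out of 70 libraries in the series. They were set against 11 libraries of the arcuate (ARH, n = 3), ventromedial (VMH, n = 2), dorsomedial (DMH, n = 4) and paraventricular (PVH, n = 2) nuclei, with each nucleus given equal weight. All 14 libraries came from untreated C57BL/6 mice at postnatal day 56, given as C57BL/6NTac males in the study's methods, with no allele, diet or agent that differed between regions. Each was a pool of tissue punches from several mice, taken from thick frozen coronal sections with the Allen atlas as guide. The spread between libraries is thus a spread between pools, libraries of different regions could hold tissue of the same mice, and a punch can take in the border of a neighbouring area. The study spread the libraries of each region over several collection batches and lists these by region, without the replicate numbers of the libraries. The sample labels name no batch, and the serial numbers in the sample descriptions were not read as batches. No within-batch value is thus given, and the part of batch in these results was not tested.

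The LHA is a loosely bounded cell field crossed by the fibres of the medial forebrain bundle. It is known for neurons that make orexins (hypocretins), which keep animals awake and drive food seeking, and for neurons that make melanin-concentrating hormone, which promote feeding and sleep. The ARH, VMH, DMH and PVH lie nearer the midline and the third ventricle, whose wall is lined by ciliated ependymal cells and tanycytes, and they hold the classical neurons of energy balance, such as the Pomc and Agrp neurons of the ARH. Zona incerta, subthalamic nucleus, thalamus and cerebral peduncle border the LHA.

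The promoters of the 2 genes that define LHA neurons by their peptide are shown because the rest of the comparison is read beside them. These are the 250 bases before the annotated start of each gene in RefSeq on GRCm38.p6, read 5′ to 3′ on the gene's own strand. Hcrt encodes prepro-orexin and its window is chr11:100762932-100763181 on the minus strand. Pmch encodes pro-melanin-concentrating hormone and its window is chr10:88090822-88091071 on the plus strand. Mobp, a myelin gene that was higher in LHA, is given with them (chr9:120149492-120149741, plus strand). Capitals mark the TATA box letters TATAAA and the letters ACAAAG of a SOX-type motif, both searched on both strands (TTTATA and CTTTGT on the other strand), with no overlap between the matches shown.
Hcrt: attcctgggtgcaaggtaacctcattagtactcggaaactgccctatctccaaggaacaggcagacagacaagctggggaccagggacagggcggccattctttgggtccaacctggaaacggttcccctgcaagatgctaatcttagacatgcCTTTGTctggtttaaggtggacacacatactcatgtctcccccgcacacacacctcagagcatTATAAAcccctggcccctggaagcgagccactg
Pmch: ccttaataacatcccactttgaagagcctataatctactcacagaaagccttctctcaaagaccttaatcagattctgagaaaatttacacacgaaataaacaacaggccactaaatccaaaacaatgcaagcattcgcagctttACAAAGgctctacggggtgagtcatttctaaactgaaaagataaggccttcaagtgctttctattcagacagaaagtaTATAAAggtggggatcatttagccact
Mobp: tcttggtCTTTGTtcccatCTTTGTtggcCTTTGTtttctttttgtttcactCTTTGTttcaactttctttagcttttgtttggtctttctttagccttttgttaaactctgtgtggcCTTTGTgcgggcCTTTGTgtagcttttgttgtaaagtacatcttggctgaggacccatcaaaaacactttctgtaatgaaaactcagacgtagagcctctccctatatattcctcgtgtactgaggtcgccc

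The TATA letters began 33 bases before the start of Hcrt and 27 bases before that of Pmch. They are in 12.4% of the 32851 mouse promoter windows of this length. The SOX-type letters are in 16.5% of all windows. Of the 25 genes of the oligodendrocyte and myelin list described below, 15 had an entry with 22 windows in all, and 9 of those windows (40.9%, from 7 genes) held the letters. The windows are not independent, as overlapping windows of Mag among these held the same match. The TATA letters were in 3 of the 22 myelin windows (13.6%). Mobp held the SOX-type letters 6 times. These matches describe letters only and say nothing of binding.

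Total estimated counts per library were 17079231 to 18663011 in LHA and 14201960 to 19689276 in the others, and mitochondrial transcripts took 8.48 to 9.12% of the TPM, a length-corrected share of each library scaled to the same total, in LHA and 5.55 to 10.3% elsewhere. Across genes, log2(TPM + 1) of LHA libraries correlated with a median r of 0.990 among themselves, 0.985 with DMH, 0.984 with PVH, 0.981 with VMH and 0.975 with ARH. These r values are over genes and describe the profiles only.

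The gene for prepro-orexin, Hcrt (chr11:100761069-100762931, minus strand, GRCm38), was most abundant in LHA and the LHA label matched both of its marker peptides. Hcrt stood at 915, 1534 and 1890 TPM in the 3 LHA libraries. It reached 659 and 939 TPM in VMH, 451, 120, 388 and 281 TPM in DMH, 13.2, 47.7 and 40.9 TPM in ARH and 0.784 and 0.276 TPM in PVH. The lowest LHA library therefore lay just under the higher VMH library, and ARH and PVH lay far below. The log2 fold change between LHA and the mean of the 4 nuclei was 5.06 ± 0.44 (SE, adjusted p = 1.67e-05). Much of that size came from the near absence of Hcrt in PVH, without which the log2 fold change was 2.96 (adjusted p = 0.00013). By nucleus it was 11.37 ± 1.19 against PVH (adjusted p = 0.000202), 5.55 ± 0.59 against ARH (3.71e-05), 2.33 ± 0.44 against DMH (0.00443) and 0.99 ± 0.53 against VMH, which did not pass (0.183).

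Pmch (chr10:88091072-88092375, plus strand) followed the same order of regions at higher levels. Its TPM was 3871, 4565 and 5180 in LHA, 3454 and 3595 in VMH, 1462, 358, 1880 and 1172 in DMH, 661, 830 and 740 in ARH and 95.8 and 16.3 in PVH. Every LHA library was above every other library, although the gap to VMH was small. The log2 fold change was 2.91 ± 0.42 against the 4 nuclei (adjusted p = 0.000483), 1.76 without PVH (adjusted p = 0.0104) and 0.50 ± 0.65 against VMH (0.598). When the 11 other libraries were fitted as a single group, neither marker passed (adjusted p = 0.115 for Hcrt and 0.129 for Pmch). In bulk tissue, fewer cells of a type and less RNA per cell cannot be told apart.

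**Figure D1:**
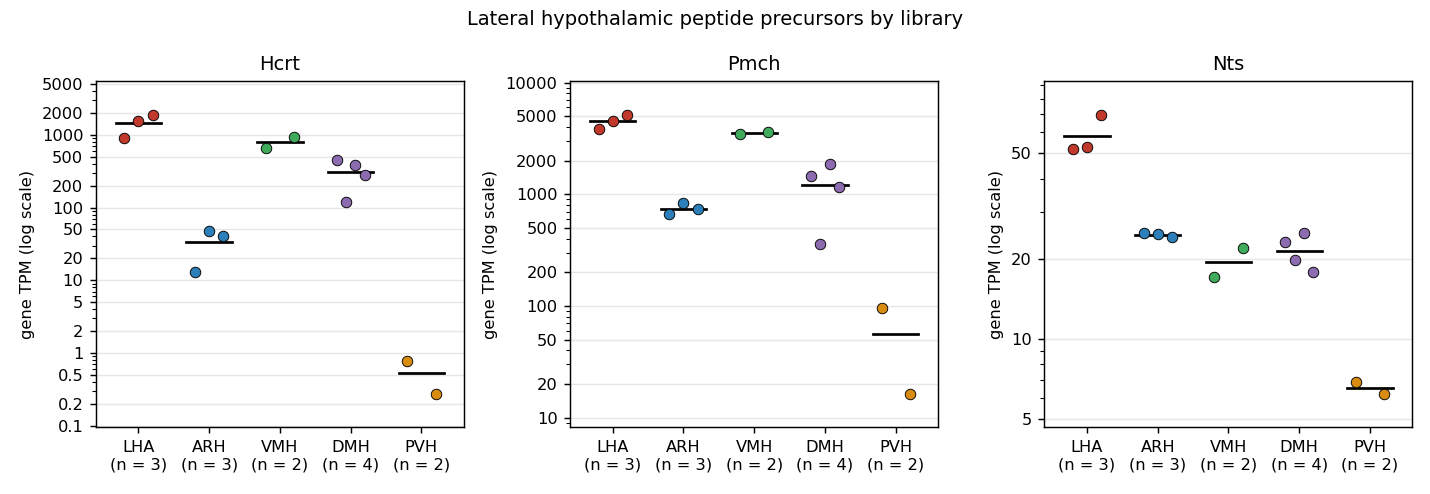
Gene TPM of Hcrt, Pmch and Nts (y axis, log scale) in each library of LHA, ARH, VMH, DMH and PVH (x axis); points are libraries and black lines are group means. Hcrt and Pmch in VMH come close to LHA, whereas Nts is above 50 TPM in all 3 LHA libraries and at most 25.1 TPM in the other 11.

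A gene was called higher or lower when its Benjamini-Hochberg adjusted p in edgeR's quasi-likelihood test was under 0.05 and its log2 fold change was beyond 1. By this rule LHA differed from the mean of the 4 nuclei in 1062 of 16526 genes (6.43%), of which 466 (2.82% of the genes tested) had more RNA in LHA and 596 (3.61%) less. Against single nuclei, 851 genes (5.15%) were higher and 1207 (7.3%) lower than in ARH, and 663 (4.01%) higher and 777 (4.7%) lower than in VMH. Fewer differed from DMH, with 329 (1.99%) higher and 480 (2.9%) lower, and from PVH, with 301 (1.82%) higher and 452 (2.74%) lower. Without PVH replicate 2 the counts against PVH fell to 154 and 282. These comparisons share the LHA libraries. Genes higher than each of the 4 nuclei numbered 108 (0.654%), and genes lower than each numbered 156 (0.944%). All 3 LHA libraries lay above all 11 others in TPM for 705 of 16151 genes (4.37%), and below all of them for 1764 (10.9%). TPM is a share of the library, and on that scale the median gene was lower in LHA by a log2 fold change of -0.14, against a median of -0.00 in the edgeR fit. With TPM as the measure, 33.4% of the called genes were higher, against 43.9% in the edgeR fit.

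The genes with the largest increases over the 4 nuclei, among those at 5 TPM or more and without overlap between LHA and the rest, were led by a protease of myelinating glia and by channel genes. Klk6, a secreted serine protease made by oligodendrocytes, was at 31.6, 25.9 and 23.1 TPM in LHA and at 0.395 to 13.4 TPM elsewhere (log2 fold change 3.57 ± 0.41, adjusted p = 5.05e-05). Kcng4, a modifier subunit of voltage-gated potassium channels, was at 12.6, 12.8 and 13.8 TPM against 0.378 to 3.55 TPM (3.56 ± 0.24, 8.55e-07). Scn4b, a sodium channel beta subunit that favours rapid firing, was at 33.1, 28 and 32.4 TPM against 1.04 to 13 TPM (3.06 ± 0.29, 2.52e-05). Kcnab3, a potassium channel beta subunit, was at 48.3, 46.3 and 49.8 TPM against 3.03 to 16.9 TPM (2.76 ± 0.19, 1.84e-06). In these 4 genes the LHA libraries stood well clear of the rest, and the log2 fold change passed against every nucleus. The others of this group were Pmch, Cyp2j12 (a cytochrome P450), Cdh23 (a large cadherin), Mab21l1, Syt2 (a fast calcium sensor of transmitter release) and the homeobox gene Meis2, with log2 fold changes from 2.42 to 2.91.

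Genes that were higher than in each of the 4 nuclei by the widest margin included Kcng4 and Klk6 again, together with 3 low-abundance genes. Nrtn encodes neurturin, a growth factor of the GDNF family, and was at 5.02, 3.45 and 6.49 TPM in LHA and 0.125 to 1.7 TPM elsewhere (log2 fold change 2.53 ± 0.42, adjusted p = 0.00031). Colq, the collagen tail of acetylcholinesterase, was at 2.84, 2.16 and 0.761 TPM, the last under the highest PVH library of 0.855 TPM (4.33 ± 0.48, 1.05e-05). Nccrp1 was at 0.926, 1.61 and 1.56 TPM against at most 0.354 TPM (3.38 ± 0.47, 6.8e-05).

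**Figure D2:**
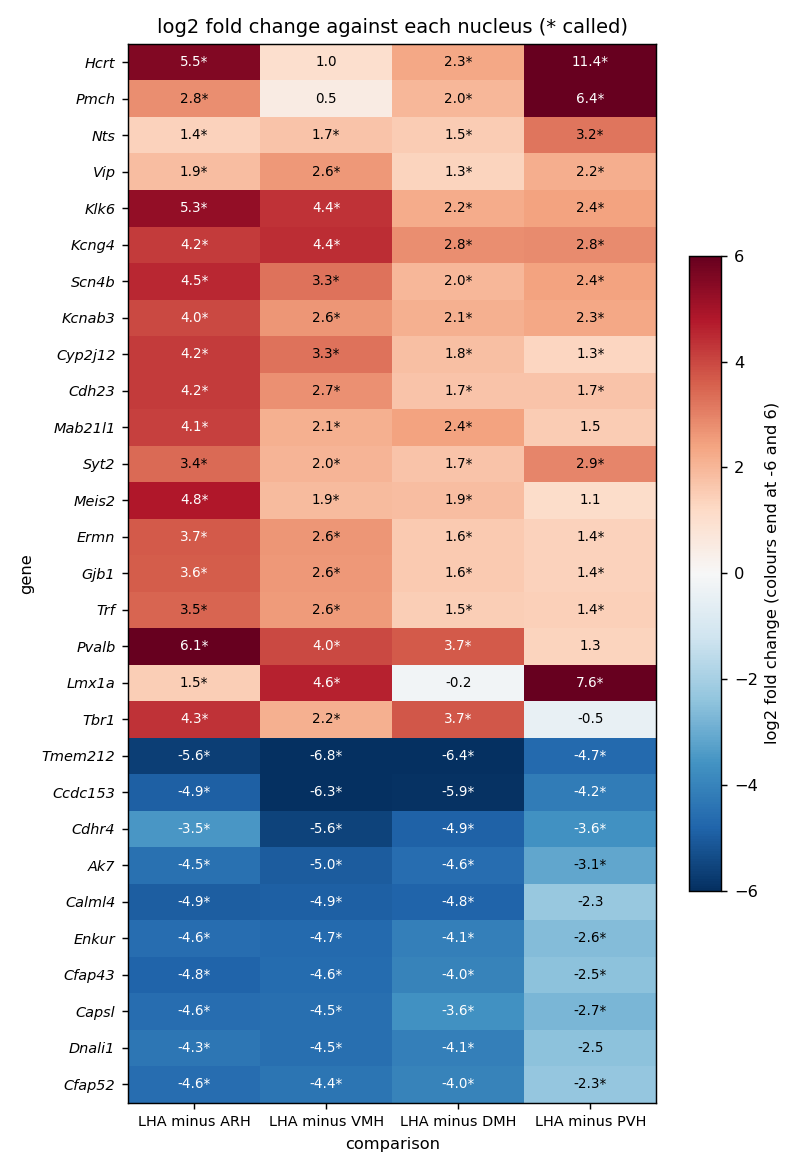
log2 fold change of LHA minus each of ARH, VMH, DMH and PVH (columns) for named genes (rows), with an asterisk where the gene was called; colours end at -6 and 6. Hcrt and Pmch are near 0 against VMH, Lmx1a is near 0 against DMH and Tbr1 against PVH, whereas Klk6, Kcng4 and Scn4b are at or above 2 in every column.

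Among neuropeptide precursors, 5 of 47 tested members were higher in LHA and 7 were lower, beside a background of 2.82% and 3.61%; 17 of the 64 listed genes were too low to test. The median log2 fold change of the list was -0.33. Nts, the precursor of neurotensin, was at 51.7, 52.7 and 69.9 TPM in LHA. It was at 24.1 to 24.9 TPM in ARH, 17.1 and 21.9 in VMH, 17.9 to 25.1 in DMH and 6.87 and 6.19 in PVH. The LHA libraries did not overlap any others, and Nts was the most evenly higher of these peptides: its log2 fold change was 1.97 ± 0.10 (adjusted p = 1.24e-07), and 1.40, 1.71, 1.55 and 3.21 against ARH, VMH, DMH and PVH. Vip, vasoactive intestinal peptide, was low but higher than in each nucleus, at 2.21, 2.46 and 2.92 TPM against 0.249 to 1.38 TPM (1.99 ± 0.30, 0.000142). Apln, the apelin precursor, had a mean of 21 ± 1.18 TPM (SD, n = 3) in LHA against at most 18.4 TPM (log2 fold change 1.13).

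The peptide genes that were lower in LHA were Prok2, Qrfp, Ghrh, Gal, Pomc, Trh and Nmb. Ghrh, growth hormone-releasing hormone, was at 6.84, 10.6 and 5.04 TPM in LHA, 107 to 129 TPM in ARH and 7.65 to 56.1 TPM in the other nuclei (log2 fold change -2.06 ± 0.50, adjusted p = 0.00722). Gal, the galanin precursor, was at 28.8 to 32.8 TPM in LHA, with the highest value, 446 TPM, in VMH library 2 (-1.69 ± 0.49, 0.0205). Trh, thyrotropin-releasing hormone, was at 24.9 to 40.6 TPM in LHA, 281 and 229 TPM in VMH and 87 and 169 TPM in PVH (-1.45 ± 0.36, 0.0106). Pomc stood at 427 to 672 TPM in ARH and at 3.73 to 5.43 TPM in LHA, a level like that of DMH and PVH, so that its call rested on ARH. Prok2 and Qrfp were under 0.5 TPM in all LHA libraries. The call of Prok2 was lost without LHA replicate 2 or 3 (up to -2.28), that of Qrfp without any 1 LHA or PVH library (-2.87 to -2.72) and that of Gal without any 1 LHA library (-1.76 to -1.66). Prok2 was at 0 TPM in LHA replicates 2 and 3, and the fit without LHA replicate 1 gave -6.36, a value that is no bound. Without ARH, Ghrh and Pomc were not called, and without VMH, Gal and Trh were not. Oxt and Avp, the hormones of magnocellular neurons, had no call against the 4 nuclei (log2 fold change -2.25 and -0.99). Sst, Penk, Tac1 and Cartpt, all abundant in LHA, lay between -0.41 and 0.63.

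Receptors of feeding signals and of LHA peptides gave 2 higher and 2 lower genes among 32 tested, with a median log2 fold change of -0.22. The shares called over all genes were 2.82% and 3.61%. By adjusted p under 0.05 in edgeR, without the fold limit, 8 receptor genes were higher and 12 lower. Htr2c, a serotonin receptor that curbs feeding, was at 59.3, 57.9 and 86.8 TPM in LHA and 15.1 to 49.8 TPM in the other libraries, with no overlap (1.23 ± 0.12, adjusted p = 9.19e-06), though the call was lost when ARH was left out of the contrast. Mc3r, a melanocortin receptor, was at 0.887, 1.22 and 0.918 TPM in LHA, below all other libraries, and up to 13.8 TPM in ARH (-1.97 ± 0.18, 2.53e-06). Calcr, the calcitonin receptor, was at 4.61, 4.64 and 6.69 TPM, also below all others (-1.61 ± 0.27, 0.000837). Ramp3, a partner of the calcitonin receptor, is described with the thalamic genes. The leptin receptor Lepr (log2 fold change -0.55), the orexin receptors Hcrtr1 (-0.15) and Hcrtr2 (-0.40) and the melanin-concentrating hormone receptor Mchr1 (-0.31) were not called.

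Of 20 tested transcription factors of the lateral hypothalamus and adjoining posterior nuclei, 8 were higher and 1 was lower in LHA, with a median log2 fold change of 0.68. Over all genes the shares were 2.82% and 3.61%. As a list they did not separate LHA from DMH, with a median of 0.01, 1 higher and 2 lower. Medians against ARH, VMH and PVH were 1.16, 1.09 and 1.02. Single factors differed in which nucleus they separated from LHA. Lmx1a, a homeobox factor of the posterior hypothalamus, was at 4.09, 3.35 and 4.93 TPM in LHA and 3.57 to 6.55 TPM in DMH. It was at 0.735 to 2.18 TPM in ARH, at most 0.355 TPM in VMH and at most 0.0456 TPM in PVH. LHA and DMH overlapped, and the log2 fold change was 3.39 ± 0.40 against all 4 nuclei (adjusted p = 3.36e-05) but -0.18 ± 0.36 against DMH (0.773). Lmx1b and Barhl1 shared this order, and Barhl1 had a log2 fold change of -0.10 against DMH and 5.27 against PVH. Foxa1 did not overlap, at 3.86 to 5.39 TPM in LHA against at most 3.15 TPM (3.13 ± 0.32, 8.37e-06). Meis2 was at 104, 121 and 80.5 TPM in LHA, 49.7 and 67 TPM in PVH and 2.68 to 5.47 TPM in ARH (2.42 ± 0.25, 3.62e-05). Lhx1 and Barhl2 also passed, at 1.04 and 1.24. Nr4a2 was lower (-1.02 ± 0.28, 0.0139), with its highest values, up to 22.9 TPM, in DMH, and its call was lost when LHA replicate 2 or 3, ARH replicate 1 or 3, VMH replicate 1 or DMH replicate 2 was left out (up to -0.90).

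Transcription factors of the medial and tuberal hypothalamus moved the other way, with 6 lower and 1 higher of 25 tested and a median of -0.44. Over all genes the shares were 3.61% and 2.82%. The shift lay with ARH and VMH, where the list's medians were -1.34 and -0.72, against 0.03 for DMH and 0.22 for PVH. Nr5a1 (SF-1), which defines the VMH, was at 0.0348 to 0.0694 TPM in LHA, 45.9 and 21.4 TPM in VMH and 16.8 to 19.7 TPM in ARH. It was also under 0.35 TPM in all DMH and PVH libraries, so the log2 fold change was -9.19 against VMH, -8.28 against ARH and 0.30 ± 1.65 against PVH. Fezf1, another VMH factor, was at 0.818 to 1.55 TPM in LHA against 28.7 to 62 TPM in VMH and ARH (-2.87 ± 0.34, adjusted p = 4.48e-05). Sox14, Six6, Nr0b1 and Otp were lower as well, with -3.71, -2.91, -2.61 and -1.67. The call of Sox14 was lost without PVH replicate 1 (-2.76) and that of Six6 without PVH replicate 2 (-2.61).

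Marker lists of the 4 nuclei gave lower calls in LHA and none higher in edgeR, DESeq2 or limma. By unadjusted p under 0.05 in edgeR 1 ARH marker and 1 PVH marker were higher, the ARH marker also by adjusted p. The lower ones were 3 of 9 tested ARH markers (Ghrh, Pomc, Th), 3 of 9 VMH markers (Nr5a1, Sox14, Fezf1), 1 of 8 DMH markers (Ppp1r17) and 3 of 9 PVH markers (Scgn, Otp, Trh). The share called lower over all genes was 3.61%. Ppp1r17 was at 2.32 to 2.63 TPM in LHA against 3.31 to 44.4 TPM (-2.33 ± 0.54, adjusted p = 0.00653). Scgn, the calcium sensor secretagogin, was at 0.927 to 2.91 TPM in LHA and reached 10.2 TPM in PVH (-1.88 ± 0.38, 0.00127). Th, the rate-limiting enzyme of catecholamine synthesis, had a call near the limit (-1.08 ± 0.36, 0.0388) that was lost when any of 10 single libraries was left out (-1.23 to -0.86). Cck and Pdyn, the most abundant DMH markers, had log2 fold changes of -0.63 (0.305) and -0.56 (0.167). Summed over its list, ARH marker RNA was 121 to 151 TPM in LHA and overlapped the other libraries at 92.48 to 1899 TPM. PVH marker RNA overlapped as well, at 186.4 to 242.5 TPM against 97.49 to 3461 TPM. VMH marker RNA was 50.5 to 64.2 TPM, below the lowest other library at 65.4 TPM. DMH marker RNA was 74.42 to 112.3 TPM in LHA and 182.3 to 463.4 TPM in the other libraries, without overlap.

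All 25 oligodendrocyte and myelin genes were higher in LHA, beside 2.82% over all genes tested. For each of the 25 every LHA library was above every other library, which held for 4.37% of all genes. The median log2 fold change was 2.10, with a range from 1.02 to 2.32, against a median of -0.00 over all genes tested. The summed list took 14700 to 18710 TPM in LHA and 1725 to 8345 TPM in the other libraries. All 25 passed against ARH and VMH, 21 against DMH and 15 against PVH, with medians of 3.30, 2.36, 1.48 and 1.23. The structural proteins of myelin were among the most abundant transcripts. Mobp, whose promoter is printed above, was at 2362, 1672 and 1676 TPM against 114 to 963 TPM (log2 fold change 2.22 ± 0.33, adjusted p = 0.000488).

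The largest changes of the myelin list included those of Ermn, a cytoskeletal protein of mature oligodendrocytes, of the gap junction gene Gjb1, and of Trf, the iron carrier transferrin. Ermn was at 107, 88.1 and 87.1 TPM against 6.52 to 43.2 TPM (2.32 ± 0.19, adjusted p = 7.67e-06). Trf was at 1499, 1319 and 1289 TPM against 120 to 805 TPM (2.24 ± 0.23, 4.33e-05). The smallest was that of the lineage factor Olig2 (1.02), which marks precursors too. Precursor genes gave 1 call in 7, Enpp6, which marks newly forming oligodendrocytes, at 18.2, 17.5 and 11.1 TPM against 1.72 to 9.81 TPM (1.81 ± 0.19, 1.59e-05). Tmem163 and Gpr17 were at 0.30 and 0.28, and Pdgfra, the defining precursor receptor, at 0.06. The list of precursors summed to 144 to 162 TPM in LHA and 119 to 151 TPM elsewhere.

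**Figure D3:**
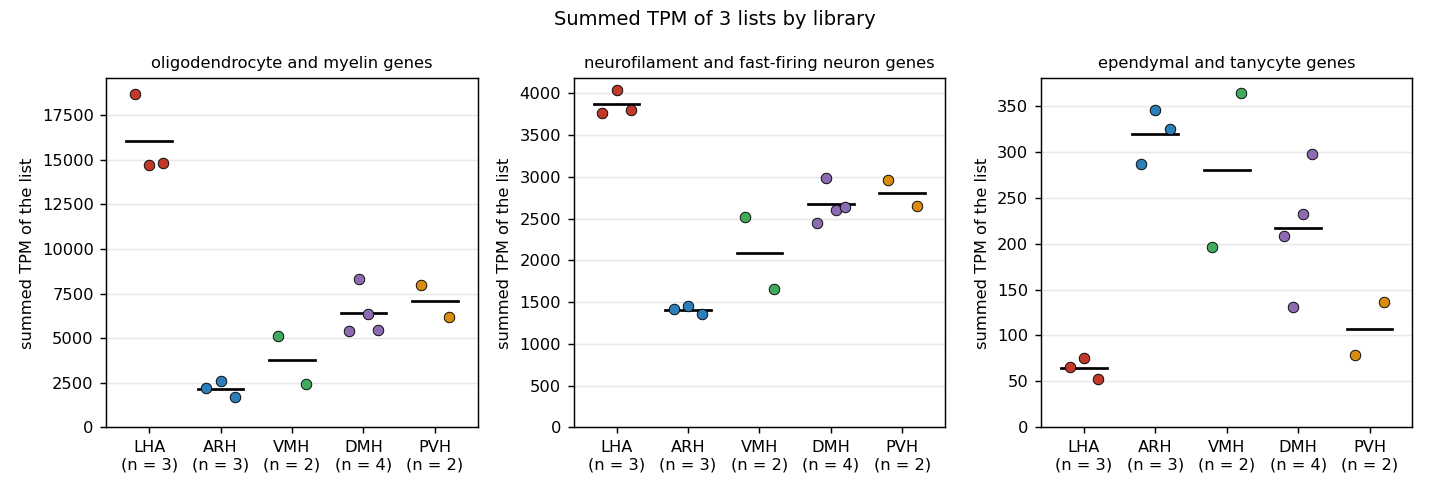
Summed TPM (y axis, linear from 0) of the myelin, fast-firing neuron and ependymal lists in each library by region (x axis); points are libraries and black lines group means. LHA lies above all other libraries for the first 2 lists (14700 TPM or more against 8345 TPM or less for myelin) and below all of them for the ependymal list (75.8 TPM or less against 78.6 TPM or more).

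Genes of neurofilaments and of fast-firing neurons were higher in 9 of 15 cases and lower in none by edgeR. By unadjusted as well as adjusted p under 0.05, without the fold limit, 15 were higher and 0 lower. DESeq2 and limma also gave 9 higher and 0 lower. The list's median log2 fold change was 1.48, and the shares called over all genes in edgeR were 2.82% higher and 3.61% lower. Pvalb, a calcium buffer of fast-spiking neurons, was at 220, 154 and 87.8 TPM in LHA. It was at 88.1 and 39.2 TPM in PVH, 6.3 to 17.3 TPM in VMH and DMH and 1.68 to 3.55 TPM in ARH, so only PVH overlapped with LHA (3.77 ± 0.33, adjusted p = 1.32e-05; against PVH 1.34 ± 0.47, 0.074). Syt2 was at 69.4, 89.8 and 89.9 TPM against 8.31 to 38.8 TPM (2.52 ± 0.18, 3.1e-06). The potassium channel Kcna1, the release protein Cplx1, the vesicle protein Vamp1 and the medium neurofilament Nefm had log2 fold changes of 1.79, 1.73, 1.61 and 1.43, each without overlap. Spp1, osteopontin, was at 17.5 to 49.8 TPM in LHA and up to 31.5 TPM in ARH (1.84 ± 0.35, 0.00213). Nefl and Nefh, at 0.88 and 0.97, stayed under the fold limit. Of 10 perineuronal net genes only Hapln1, a link protein, was called (2.04 ± 0.21, 6.51e-06), while Bcan and Hapln4 were at 0.40 and 0.73.

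The genes that were lowest in LHA, among those at 5 TPM or more and without overlap, were Tmem212, Ccdc153, Cdhr4, Ak7, Calml4, Enkur, Cfap43, Capsl, Dnali1 and Cfap52. Several belong to motile cilia: Cfap43 and Cfap52 encode cilia and flagella associated proteins, Dnali1 an axonemal dynein chain, Enkur an axonemal protein and Ak7 an adenylate kinase of cilia. Tmem212 was at 0, 0.58 and 0 TPM in LHA. It was at 8.25 to 13.5 TPM in ARH, 12 and 37.7 in VMH, 7.92 to 25.3 in DMH and 2.97 and 8.15 in PVH (log2 fold change -5.87 ± 0.86, adjusted p = 0.000232). With 2 LHA libraries at 0 the size of this fold rests on LHA replicate 2, without which the fit gave -9.04, a value that depends on the prior count and is no bound. Ccdc153 was at 1.93, 0.611 and 0.341 TPM against 11.3 to 118 TPM (-5.33 ± 0.74, 0.000241). In both, PVH came closest to LHA without reaching it. The others had log2 fold changes from -4.39 to -3.81, and the transcript annotation matched Cfap43 incompletely. Fam81b, Spag17, Wdr63 and Ak9, which with Tmem212 had the widest margins below every nucleus, were at most 0.194 TPM in any LHA library. Fam81b was at 0 in all 3, against 0.0824 to 2.74 TPM, so no fold is given for it.

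Of 13 genes on the list of ependymal cells and tanycytes, 6 were lower and none higher, with a median of -1.15 and a summed level of 52.5 to 75.8 TPM in LHA against 78.6 to 364 TPM. By unadjusted and by adjusted p under 0.05 in edgeR, 1 was higher, and DESeq2 and limma called 0 higher. The list's median was -2.01 against ARH and -1.12 against VMH but 0.16 against DMH and 0.14 against PVH, and 9, 6, 5 and 3 genes were lower in turn, with 1 higher against each of VMH, DMH and PVH. Besides Tmem212 and Ccdc153, these were Rsph1, a radial spoke protein of cilia (-2.54 ± 0.35, adjusted p = 0.000125), Rarres2, the chemerin precursor (-1.74 ± 0.32, 0.00125), Scn7a (-1.61) and Col23a1 (-1.18). Foxj1, the master factor of motile cilia, was at -0.77 and not called, with a mean of 10.4 TPM in LHA. Choroid plexus genes gave 3 lower calls in 7, Folr1 (-1.88), Clic6 (-1.81) and Kl (-1.03), beside 3.61% lower over all genes. None of the 3 was called when all adult libraries entered the edgeR fit. Against ARH, VMH, DMH and PVH, 5, 3, 2 and 1 choroid genes were lower in turn, and 1 was higher each time. The defining marker Ttr was at most 3.85 TPM in any of the other libraries. The call of Folr1 was lost without LHA replicate 2 or 3 (-1.35 and -1.94) and that of Kl without VMH replicate 2 or PVH replicate 2 (up to -0.92). Among pituitary hormone genes, Lhb was lower (-3.65 ± 1.22, 0.0299), but this call was lost without any 1 of the LHA libraries, VMH replicate 2 or PVH replicate 1 (-5.51 to -2.70, with LHA replicates 2 and 3 at 0), and Cga was at 67.3 to 93.7 TPM in ARH and under 0.5 TPM everywhere else. The part that ventricle wall tissue in the medial punches had in these results was not tested.

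Markers of areas that border the LHA were read in the same way. Subthalamic, zona incerta and reticular thalamic markers gave 7 higher of 10 and a median of 1.40, beside 2.82% higher over all genes. Pvalb, Barhl1 and Pax6 were among them, and Pvalb and Barhl1 also belong to lists described above. Against ARH, VMH, DMH and PVH, 7, 8, 2 and 4 markers were higher in turn, and 1 was lower than in ARH. The medians were 2.07, 1.64, 0.47 and 0.74. The list summed to 435 to 562 TPM in LHA and 242 to 696 TPM in the other libraries, so the sums overlapped. Pax6, a factor of the zona incerta, was at 24.3, 36.6 and 29.8 TPM in LHA and 32.8 and 34.5 TPM in PVH (1.46 ± 0.11, adjusted p = 6.6e-07; against PVH -0.11, 0.671), and it was not called without ARH. Nxph4 and Barhl2 were also higher, at 1.45 and 1.24. Thalamus markers gave 1 higher of 10 with a median of -0.20, and summed to 489 to 617 TPM in LHA against 373 to 1674 TPM. Single nuclei went opposite ways, with 6 higher than in ARH and 5 higher than in VMH (medians 1.06 and 1.09), and 3 lower than in DMH and 8 lower than in PVH (-0.73 and -1.42). Striatal and pallidal markers gave 0 calls of 11 in edgeR, with Penk at 0.63 and Rasd2 at -0.20. In edgeR 5 were higher and 4 lower by unadjusted p under 0.05, and 4 and 3 by adjusted p. DESeq2 and limma each called 1 lower. What tissue of these areas added to any result was not tested.

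LHA replicate 3 stood apart from the other LHA libraries in 3 of the thalamic and cortical genes that were called. Prkcd, a kinase gene typical of thalamic relay neurons, was at 115, 132 and 29.7 TPM in LHA. It was at 86.6 to 207 TPM in DMH and PVH and at 9.9 to 15.3 TPM in ARH and VMH (1.44 ± 0.40, adjusted p = 0.0172, on counts that the annotation matched incompletely). Slc17a7, the vesicular glutamate transporter of cortex and thalamus, was at 31.8, 32.9 and 5.2 TPM (1.78 ± 0.52, 0.0225), and Ramp3 at 55, 52.7 and 18.2 TPM (1.21 ± 0.36, 0.0219). In all 3 genes LHA was above ARH and VMH on average, and no gene passed against DMH or PVH. For Prkcd, LHA replicate 3 lay under every DMH and PVH library. Their calls were lost without LHA replicate 1 or 2, and for Slc17a7 and Ramp3 also without VMH replicate 1 (down to 1.12, 1.46 and 0.94), and the log2 fold changes were 1.86, 2.24 and 1.56 without replicate 3. Tbr1, a cortical factor, was even across LHA at 9.98, 7.45 and 6.2 TPM and highest in PVH at 16.2 and 13.7 TPM (2.43 ± 0.29, 5.07e-05). The whole list of cortex, hippocampus and amygdala pyramidal markers gave 2 higher and 1 lower of 9 tested, with a median of 0.37. Over all genes the shares were 2.82% and 3.61%. The list summed to 243 to 360 TPM in LHA and 321 to 573 TPM in the other libraries, so most of the LHA range lay on the low side.

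**Figure D4:**
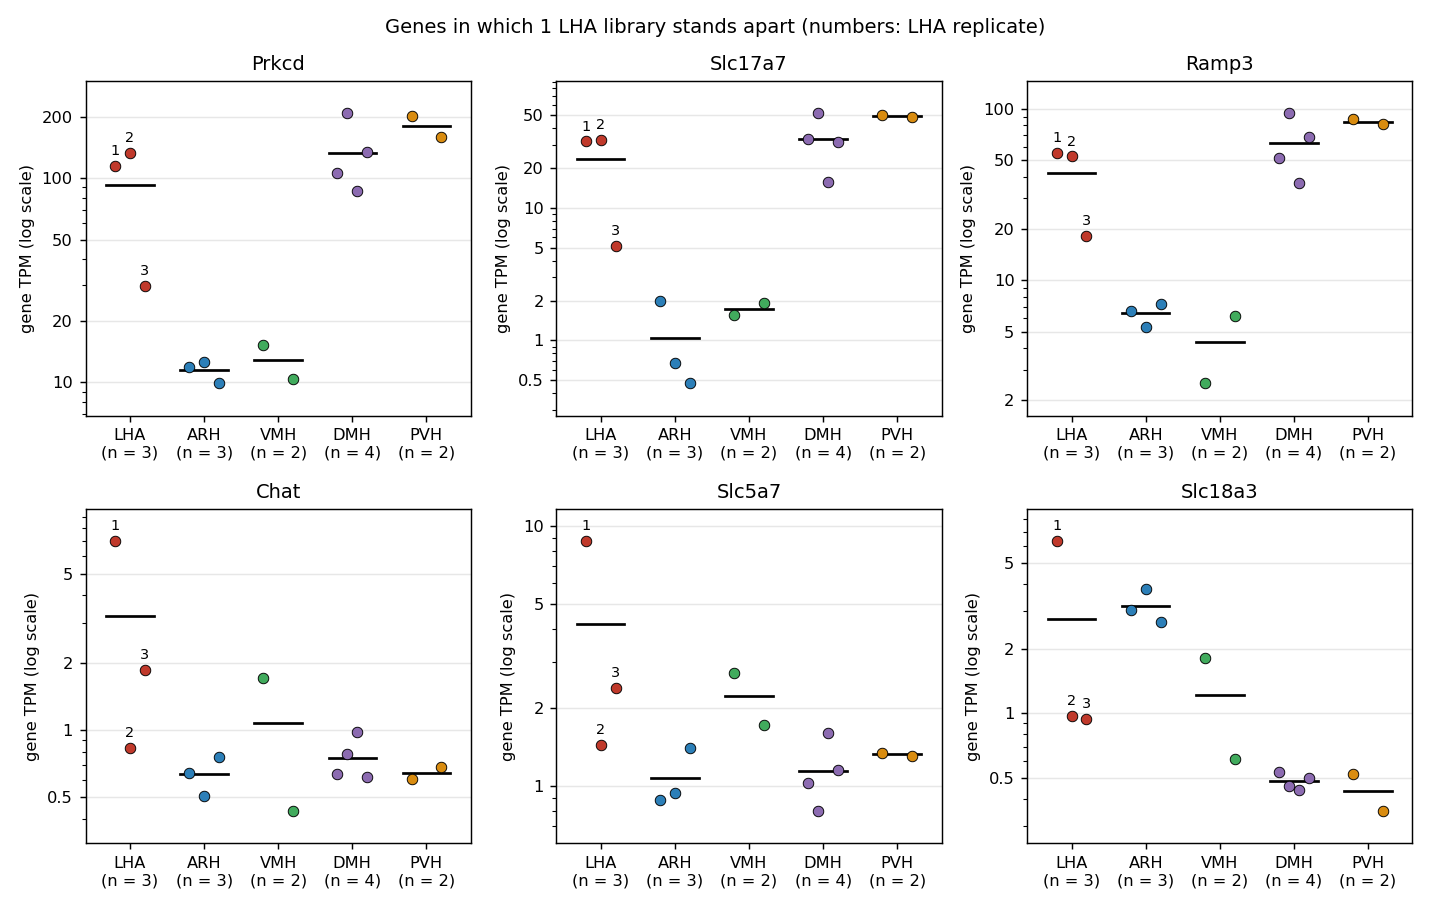
Gene TPM (y axis, log scale) of 6 genes in which 1 LHA library differs from the other LHA libraries, by region (x axis); points are libraries, numbers mark the LHA replicates and black lines are group means. Replicate 3 is low for Prkcd, Slc17a7 and Ramp3 (29.7, 5.2 and 18.2 TPM), and replicate 1 is high for Chat, Slc5a7 and Slc18a3 (7, 8.73 and 6.34 TPM).

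Among fast transmitter genes, 2 of 10 tested were higher and 1 lower, beside 2.82% and 3.61% over all genes. Gad1, which makes GABA, was at 561, 569 and 432 TPM in LHA and 188 to 354 TPM elsewhere, without overlap (1.16 ± 0.13, adjusted p = 4.01e-05). Slc32a1, which loads GABA into vesicles, and Gad2 had log2 fold changes of 0.91 and 0.58, under the limit. Slc17a6, the glutamate transporter of most hypothalamic neurons, was at -0.25 (0.124), and Slc17a8, another transporter of this family, was lower in LHA than in each nucleus (-2.11 ± 0.26, 3.16e-05). Slc17a7, the other higher gene, is described above.

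The 3 cholinergic genes rested on a single library. Chat, which makes acetylcholine, was at 7, 0.83 and 1.86 TPM in LHA and 0.435 to 1.71 TPM elsewhere. Its log2 fold change was 2.22 ± 0.48 (adjusted p = 0.00319), Slc5a7, the choline transporter, was at 1.73 ± 0.42 (0.00714) and Slc18a3, which lies inside the Chat locus, at 1.66 ± 0.50 (0.0208). Without LHA replicate 1 these were 0.93, 0.57 and 0.11 and none was called. Slc6a3, the dopamine transporter, was at 1.76, 3.17 and 4.02 TPM in LHA, above VMH, DMH and PVH and below ARH at 5.54 to 7.91 TPM (1.46 ± 0.23, 0.000185; against ARH -1.05 ± 0.27, 0.00523).

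None of 12 microglia genes and none of 11 endothelial and vascular genes was called in edgeR, DESeq2 or limma. By unadjusted p under 0.05 in edgeR, 11 microglial and 8 vascular genes were higher and 0 lower, with medians of 0.32 and 0.41. By adjusted p under 0.05, 10 and 7 were higher and 0 lower, and these went uncalled only because they stayed under the fold limit. The vascular list summed to 419.8 to 432 TPM in LHA and 268 to 409.6 TPM in the other libraries, without overlap. Among the most abundant members, C1qa of microglia was at 0.30, and Ly6c1 and Vtn of vessels were at 0.64 and 0.41. Among 15 astrocyte genes, Gfap was higher (1.06 ± 0.24, adjusted p = 0.00582) at 203, 175 and 103 TPM, overlapping ARH at 90.1 to 180 TPM, and its call was lost without LHA replicate 1 or 2, ARH replicate 3 or VMH replicate 1 (down to 0.82). Itih3 was lower at 97.7, 96 and 116 TPM against 120 to 391.6 TPM (-1.10 ± 0.10, 4.37e-06). Of 5 red blood cell genes Hbb-bt passed (1.19 ± 0.38, 0.0322), with values of 138 to 350 TPM that overlapped ARH at 134 to 340 TPM, and not without LHA replicate 1 or 2 or either PVH library (0.80 to 1.21). Hba-a1 and Hbb-bs were at 1.01 (0.0579) and 1.05 (0.0682) in edgeR, and DESeq2 called both higher (adjusted p = 0.0333 and 0.043), 3 of the 5 in all. The 5 genes had a median of 1.02, with medians of 1.23 to 1.38 against VMH, DMH and PVH and 0.18 against ARH, and summed to 917 to 2428 TPM in LHA against 406 to 2690 TPM.

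Among immediate early genes, which report recent neuronal activity, Arc and Npas4 moved in opposite directions. Arc was at 29.2, 30.3 and 23 TPM in LHA against 7.49 to 16.6 TPM (1.38 ± 0.15, adjusted p = 1.69e-05), and Npas4 at 1.52, 2.25 and 1.67 TPM against 3.2 to 5.71 TPM (-1.21 ± 0.20, 0.000265), both without overlap. Fos (-0.45) and Egr1 (-0.32) were not called, and the other members gave no call either. Of 15 steroid and pituitary hormone receptor genes, Crhr1, a receptor of corticotropin-releasing hormone, was higher at 11.6, 11.3 and 12.1 TPM against 3.21 to 8.42 TPM (1.27 ± 0.10, 1.06e-06). It was the only call of the list, beside 2.82% higher over all genes, and the list's median was -0.22. By adjusted p under 0.05 without the fold limit, 2 were higher and 6 lower. Against ARH alone, 1 was called higher and 4 lower. Thra and Nr3c1, the most abundant of the 15, were at 0.02 and -0.17.

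Imprinted genes of the hypothalamus gave 3 lower of 13 tested and none higher, with a median of -0.46, beside 3.61% lower over all genes. By unadjusted p under 0.05 in edgeR 1 was higher, and DESeq2 and limma called 0 higher. Magel2, a gene of the Prader-Willi region, was at 9.32, 11.8 and 13.2 TPM in LHA, 50.8 to 55.5 TPM in ARH and 10.3 and 14.9 TPM in PVH (-1.13 ± 0.14, adjusted p = 4.47e-05), so the difference lay with ARH and VMH. Asb4 followed the same order (-1.23 ± 0.34, 0.0172) and lost its call without LHA replicate 1 or 2 or VMH replicate 2 (-1.26 to -0.999), and Calcr was the third. Of the study's obesity-associated genes, 182 were tested, 5 were higher and 5 lower, a share of each near the background, with a median of -0.02. Lmx1b (2.80), Hhip (1.61), Sema3a (1.24), Cyp27a1 (1.19) and Sema3d (1.15) were higher. Hhip, a hedgehog-binding protein, was at 7.27, 8.26 and 6.64 TPM against 1.15 to 4.5 TPM (1.61 ± 0.09, 1.46e-07). Tfap2b (-2.11), Calcr, Pomc, Stk33 (-1.36) and Asb4 were lower, and Tfap2b was at 0.466 TPM or less in LHA and lost its call without VMH replicate 2 (-1.60).

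**Figure D5:**
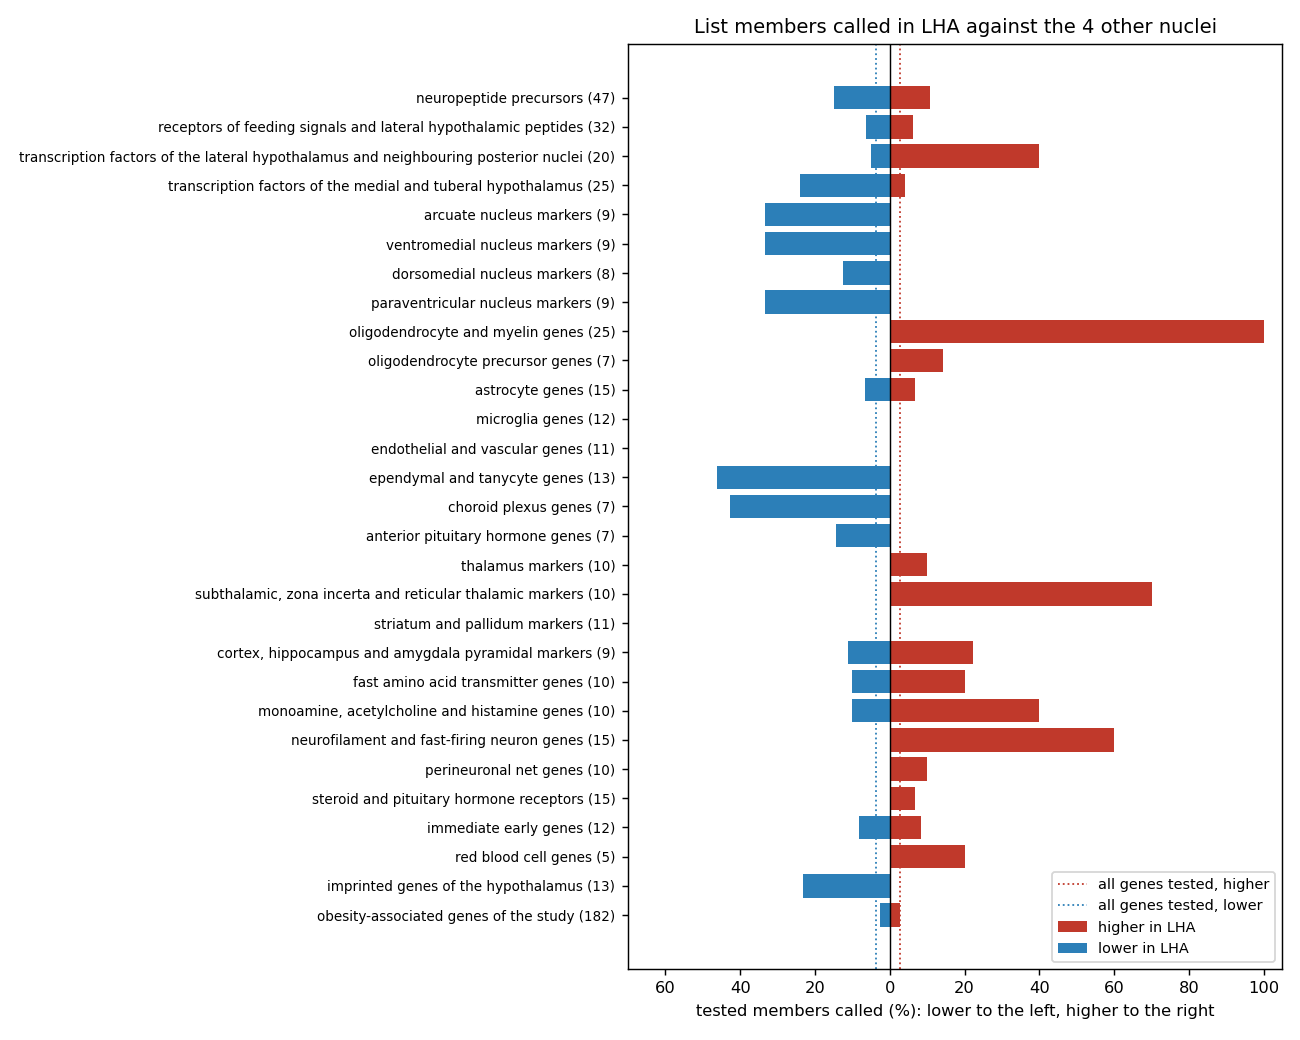
Share of tested members called lower (left) and higher (right) in LHA than in the 4 nuclei (x axis, %) for each gene list (y axis, number tested in parentheses); dotted lines are the shares over all genes tested, 3.61% and 2.82%. In this contrast with the 4 nuclei together, the myelin list is called higher in full. The ependymal, choroid and nucleus marker lists are called only lower in it.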

How the data were processed

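RNA-Seq libraries of 14 hypothalamic tissue pools were taken from a series of 70. Per the labels, CASAVA 1.8.2 and Kallisto on GRCm38 were used, and the authors deposited estimated counts per transcript and TPM per gene. Here, 107987 of 109282 transcripts (98.8%) were matched to GENCODE M21 genes, and expected counts were summed per gene and rounded. Unmatched transcripts held 0.495 to 0.555% of counts. For 338 symbols transcript and gene TPM differed by over 1%. edgeR 4.0.16 in R 4.3.3 (TMM, filterByExpr, robust quasi-likelihood test, region as factor) gave LHA minus the unweighted mean of 4 nuclei and LHA minus each, with Benjamini-Hochberg adjustment over 16526 genes. Standard errors (SE) are from this fit, and levels are gene TPM. DESeq2 1.42.0 and limma 3.58.1 were alternatives.

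Members and lists were chosen with earlier results of these data known. Genes were named by rules: Hcrt and Pmch; the 10 largest changes each way without overlap at 5 TPM or more; up to 4 called members per list and direction, or the 2 with the highest TPM where fewer than 2 were called; and the 5 with the widest margin over or under every nucleus. Other list members named for context were picked after their values were seen. The script was tested on simulated data: at 4-fold, 49 of 49 changed genes were called, at 2-fold 23 of 49, and 0 unchanged genes. A 2-fold change lies at the fold limit itself. The simulation gave every gene the same dispersion and the 4 other nuclei equal means. It thus checks the script, and its rates do not carry over to these data. Meg3 was not analysed here, and some genes that meet these rules are not reported here. Replicates are pools, so p-values measure the spread between pools.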

Additional observations from a re-analysis of the deposited data

Results flagged for a closer look

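Within DMH, the one group of 4 libraries, 4 of 108 named genes (3.7%) had a library far from the other 3 by Dixon's gap test, which chance gives in about 1 of 20 groups. DMH replicate 2 was highest for Scn4b (13 TPM), Gjb1 (25.1 TPM) and Trf (805 TPM) and lowest for Mc3r (1.52 TPM). Each of these values stayed on the same side of the LHA libraries as the rest of DMH.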

How the results depend on the processing

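Of 93 named genes that were called, 47 kept the call under every alternative and 59 under all but the fit with 2 groups, and none changed sign. DESeq2 and edgeR with RLE normalization called all 93, limma on log2(TPM + 0.5) called 80, and the fit of 3 against 11 libraries as 2 groups 58, without Hcrt and Pmch. The count of higher genes moved from 466 to 274 with limma on log2(TPM + 0.5), to 272 with limma and no filter and to 310 with 2 groups. With limma on log2(TPM + 0.5), higher genes numbered 560 against ARH, 419 against VMH, 207 against DMH and 190 against PVH. When library medians were set to 0, an alternative chosen after seeing the data, limma gave 370 higher and 406 lower (47.7% higher). Leaving out each library gave 382 to 507 higher and 538 to 632 lower genes; against PVH the ranges were 154 to 318 higher and 282 to 485 lower, with the lowest of both without PVH replicate 2. In the contrast without ARH, VMH, DMH or PVH, 78, 82, 88 and 90 of the 93 named genes kept their call. Uncalled values that changed sign were those of Cck (0.15) and Rasd2 (0.034) in the contrast without PVH, Cga (0.89) without ARH, and Thra, at -0.13 with limma on log2(TPM + 0.5) or log2(TPM + 0.1) or with no filter, and between -0.049 and 0.046 when 1 library was left out. The cause was not tested.

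With the replicate number as a block, 469 genes were higher and 561 lower, and Qrfp, Gal and Th lost their calls at log2 fold changes of -2.54, -1.71 and -1.11. Same-numbered libraries did not deviate together (23 pairs, r from -0.14 to 0.14). In 54 pairs of unlike number r was -0.19 to 0.19, and the numbers were read as names. Replicate numbers were not matched to collection batches, so neither the block fit nor these r values can show a shared batch. In VMH and PVH, with 2 libraries each, the deviations are mirror images by construction. With 2 libraries for VMH and for PVH, values against these nuclei rest on the least data.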

Other observations

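Outside the hypothalamus, Hcrt and Pmch were close to absent in the 43 libraries of 13 other adult regions. The highest regional mean of Hcrt was 1.1 ± 0.56 TPM (SD, n = 4) in the nucleus of the solitary tract, and the highest of Pmch was 3.22 ± 1.28 TPM (SD, n = 3) in the ventral tegmental area. The PVH libraries, at 0.784 and 0.276 TPM of Hcrt, lay within the range of these regions, which reached 1.89 TPM, while for Pmch the PVH libraries, at 95.8 and 16.3 TPM, were above their highest value of 6.1 TPM.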
